A study of Drosophila melanogaster with 2 samples.

Results

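The genes described here are 36 genes of Drosophila melanogaster that encode transcription factors, or close partners of them, known for giving neurons or their precursors an identity. They were chosen by symbol, all 36 symbols matched the gene annotation, and they make up 36 of 13968 protein-coding genes on the chromosome arms. The study mapped where Lim3, a LIM-homeodomain transcription factor, was bound in chromatin of whole embryos aged 8 to 24 h (the source label, since a separate age label is no plausible embryo age and was not used). The embryos came from the Lim3-GFP strain, transgenic flies that express a Lim3-eGFP fusion, and sonicated chromatin was precipitated with an antibody against GFP (chromatin immunoprecipitation followed by sequencing, ChIP-seq). The labels give 1 group with 2 biological replicates, both of the same genotype and age, so there is no second condition to compare. No control library was analysed here, and the number of reads per library is unknown.

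Cells of the fly nervous system are thought to be told apart by combinations of transcription factors. Patterning genes first mark the neuroblasts by position in the segment and the head, genes such as pros then act as daughters of the neuroblasts leave the cycle, and homeodomain, POU and zinc finger proteins mark the neurons that result. Lim3 itself is known for its part in such a combination in ventrally projecting motor neurons. Homeodomain proteins as a class bind short sites rich in A and T around the letters TAAT, of which TAATTA is a palindromic form. Embryos were taken whole, so a site bound in few cells and a site bound weakly in many cannot be told apart.

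Sequences at 6 of the genes are printed first because they carry the range of what was found: the 3 promoter peaks past the authors' threshold that could be shown (at pros, scrt and eg), the SoxN peak just short of it, the al peak that passed in 1 replicate alone, and the D peak, which holds TAATTA. Each is the + strand of the release 6 genome (the dm6 assembly, read from the RefSeq copy), 200 bases centred on the summit of the peak, or for pros the 158 of those bases that lie outside transcripts. Capitals mark TAAT on either strand (TAAT or ATTA), and TAATTA, which contains both, is therefore capital throughout. A match describes the letters and is not evidence of a bound site. The pros window is chr3R:11409889-11410046 and held 7 such matches, 1 TAATTA among them. It lies beyond the 3' end of pros, at the promoters of Irbp and mgr, and not at a pros promoter. The scrt window is chr3L:3983574-3983773 and held 1 match. The eg window is chr3L:21808319-21808518 and held 8 matches. The SoxN window is chr2L:8827321-8827520, lies in coding sequence and held 0. The al window is chr2L:379505-379704, lies in an intron and held 4. The D window is chr3L:14172244-14172443, is intergenic and held 3, in 1 run.
pros: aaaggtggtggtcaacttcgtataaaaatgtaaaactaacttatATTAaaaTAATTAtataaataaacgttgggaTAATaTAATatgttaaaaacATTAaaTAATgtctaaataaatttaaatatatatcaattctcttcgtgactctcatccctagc
scrt: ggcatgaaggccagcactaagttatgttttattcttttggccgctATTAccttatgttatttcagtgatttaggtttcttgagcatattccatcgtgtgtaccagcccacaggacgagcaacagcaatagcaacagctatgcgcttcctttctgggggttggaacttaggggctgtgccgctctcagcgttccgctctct
eg: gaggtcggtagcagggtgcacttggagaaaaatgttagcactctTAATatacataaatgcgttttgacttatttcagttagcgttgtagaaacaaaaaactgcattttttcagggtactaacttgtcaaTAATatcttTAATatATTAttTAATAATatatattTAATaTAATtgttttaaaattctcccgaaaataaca
SoxN: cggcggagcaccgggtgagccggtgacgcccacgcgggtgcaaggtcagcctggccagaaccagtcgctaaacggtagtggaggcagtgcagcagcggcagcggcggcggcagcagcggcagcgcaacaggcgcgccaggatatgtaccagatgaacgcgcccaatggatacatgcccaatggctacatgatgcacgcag
al: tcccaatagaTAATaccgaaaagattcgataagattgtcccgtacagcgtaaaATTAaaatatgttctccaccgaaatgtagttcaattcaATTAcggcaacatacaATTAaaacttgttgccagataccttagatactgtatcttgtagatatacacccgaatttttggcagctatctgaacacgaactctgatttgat
D: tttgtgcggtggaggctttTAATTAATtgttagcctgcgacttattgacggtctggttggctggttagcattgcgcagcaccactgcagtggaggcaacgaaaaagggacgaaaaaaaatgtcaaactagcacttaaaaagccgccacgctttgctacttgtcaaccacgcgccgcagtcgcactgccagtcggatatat

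The windows differed in base composition. G and C made up 22.8% of the printed pros stretch, 27.5% of the eg window and 35.0% of the al window, against 48.0% at scrt, 49.0% at D and 66.0% at SoxN. All 200 base windows around ranked peaks had a mean of 46.6%. TAAT on either strand occurred in 73.4% of those windows and TAATTA in 9.94%. A TAAT match alone is thus usual, and TAATTA is the rarer of both. Of the printed windows, those of pros and D held TAATTA. The D window was printed because it holds this word, so its presence there is no separate result. The D peak is not past the authors' threshold.

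The deposited lists are of 2 kinds. A ranked list holds every candidate peak, and a thresholded list keeps peaks whose irreproducible discovery rate (IDR, the estimated share of peaks that would not recur) is 0.01 or less. The ranked list made from both libraries held 142438 peaks, and those of replicates 1 and 2 held 104680 and 113860. The larger thresholded list from both libraries held 1500 peaks, the list the authors named conservative held 966, and the replicates held 881 and 927. Signal is the authors' own value for a peak, and the place of a peak is its order by signal within 1 list, with 1 as the strongest. A peak was given to a gene when its summit lay in the gene span extended by 5 kb.

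Peaks past the threshold were found at 4 of the 36 genes, otp, pros, scrt and eg, with 1 peak each. The same held for 20.0% of all protein-coding genes, so the members' share of 11.1% was no higher than that of genes in general. In the conservative list 3 genes had a peak (otp, pros and scrt, against 14.6% of all genes). The list of replicate 1 had a peak at pros alone (12.4% of all genes), and the list of replicate 2 had peaks at 3 genes (al, otp and pros, 13.7% of all genes). Only pros was in all 4 thresholded lists.

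The strongest peak at any member was at otp (orthopedia), which encodes a paired-type homeodomain protein of the brain and the hindgut. Its summit fell in the coding sequence of otp, in a peak at chr2R:20884395-20884724, 13024 bp from the nearest otp transcript start. The signal was 132, place 396 of the ranked list, with an IDR of 0.000269. In replicate 1 the overlapping peak had a signal of 51.0 and place 747, with an IDR of 0.0150, outside the limit. In replicate 2 it had a signal of 81.7 and place 285, with an IDR of 0.000170. The peak was thus high in both libraries and passed the limit in 1 of them. The next peak at otp had a signal of 55.1 and place 2253, so a single peak stood well above the other 42 around it.

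The second, at pros (prospero, which encodes an atypical homeodomain protein passed to ganglion mother cells), lay outside the gene. Its place was 476 with a signal of 119 and an IDR of 0.000353, at chr3R:11409824-11410153. The summit was 2362 bp beyond the 3' end of pros and 37201 bp from the nearest pros transcript start. It lay 58 bp from the start of Irbp and 114 bp from that of mgr, a pair of genes transcribed away from each other, which encode a Ku-type DNA end binding protein and a prefoldin subunit. In replicate 1 the peak had place 904 and a signal of 45.6, and in replicate 2 place 343 and a signal of 73.9. The IDR was 0.00739 and 0.000716 in the replicates, past the limit in both. Within the pros span itself, 93 ranked peaks were counted, and the strongest had a signal of 48.0 and place 3661. None of the peaks in the span passed the threshold.

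The peaks at scrt and eg were the ones at the members' own promoters. At scrt (scratch, a zinc finger protein of the Snail family expressed in neurons) the summit was 222 bp upstream of the transcript start, in chr3L:3983509-3983838. The signal was 74.4, place 1138, with an IDR of 0.00304. The replicates placed it at 1323 (signal 36.9) and 1346 (signal 39.3), close to each other, yet with IDR values of 0.285 and 0.0260 it was in neither replicate's thresholded list. At eg (eagle, a zinc finger protein of the nuclear receptor class that acts in serotonergic lineages) the summit was 284 bp upstream of the transcript start, in chr3L:21808254-21808583. The signal was 65.4, place 1465, and the IDR 0.00697. The replicates placed it at 2659 (signal 29.1) and 1408 (signal 38.6), with IDR values of 0.120 and 0.328. The eg peak was in the larger list alone, since its IDR in the list behind the conservative one was 0.0108.

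**Figure D1:**
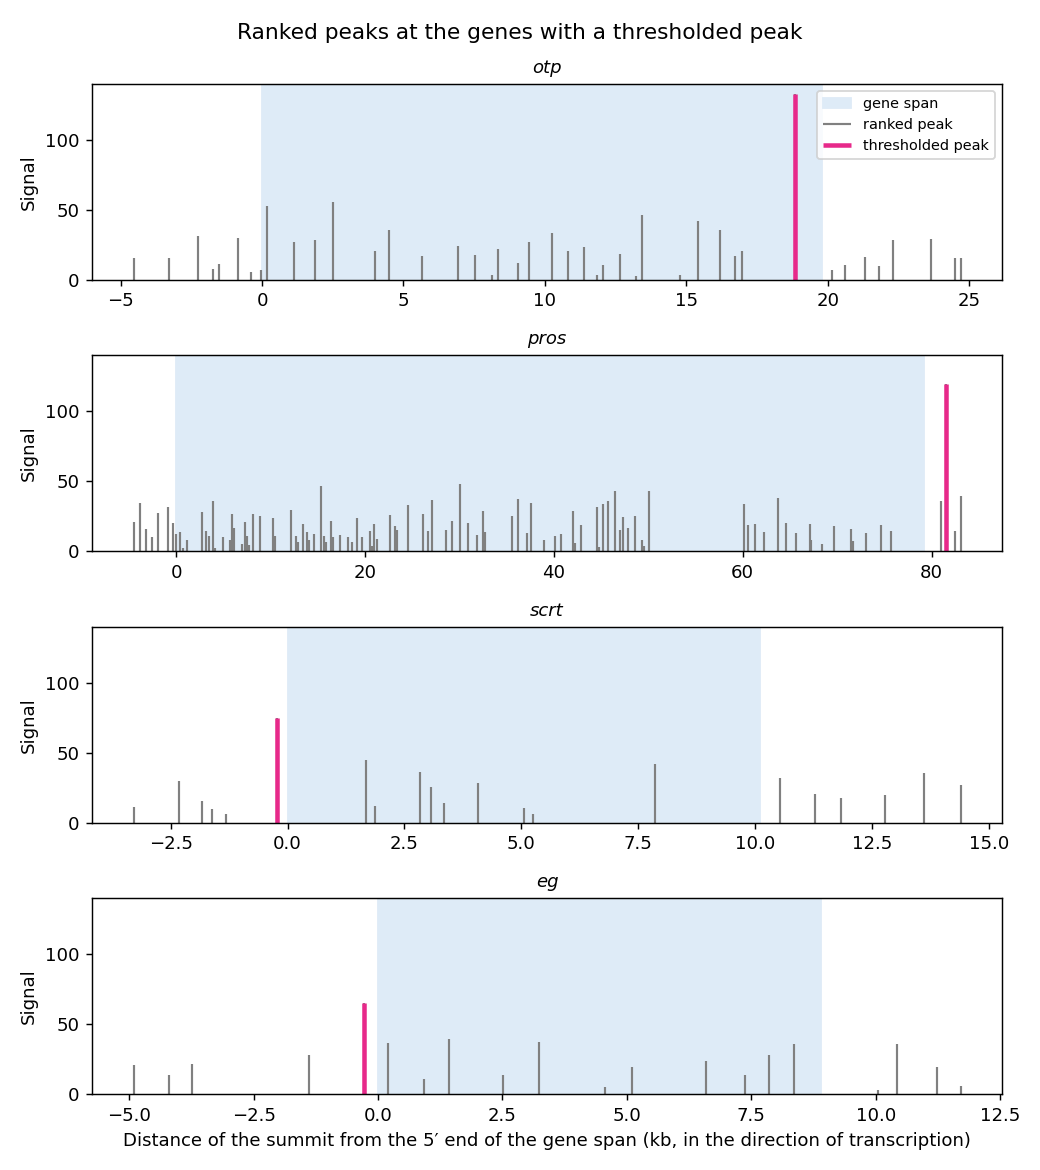
Signal (the authors' value, vertical axis) of every ranked peak of both libraries against the distance of its summit from the 5' end of the gene span in kb, for otp, pros, scrt and eg, with the span shaded. The thresholded peak is inside the span at otp (signal 132), beyond the 3' end at pros (119), and just upstream of the start at scrt (74.4) and eg (65.4).

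The members nearest to the threshold on its other side were SoxN and pdm3. SoxN, a Sox protein of the neuroectoderm, had its best peak in its coding sequence, with an IDR of 0.0108 and place 2006 (replicates 3308 and 6133). The best peak of pdm3, a POU protein of olfactory and other neurons, was intronic with an IDR of 0.0120 and place 1869 (replicates 3731 and 2868). The next lowest IDR, 0.0179, was that of the second peak by signal at oc (orthodenticle, a head gap homeodomain gene), at place 3025. The 4 listed genes and these neighbours therefore lie along 1 gradient of IDR, from 0.00697 at eg to 0.0108 at SoxN around the limit. At the members, 0 ranked peaks past the limit were missing from the thresholded list.

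Below the threshold the ranked list gives a place to 33 of the 36 genes. The best place was within the first 5000 for 16 genes, and for 45.3% of all protein-coding genes. In replicate 1 that count was 16 (39.7% of all genes) and in replicate 2 it was 15 (48.2%). The first 5000 places of both replicates' lists held a peak at 9 genes: otp, pros, scrt, eg, pdm3, bsh, al, ey and lbl (26.4% of all genes). The peaks need not be the same in both replicates. The best peak of the joint list was itself within the first 5000 in both for 5 genes (eg, otp, pdm3, scrt and pros). The median best place of the 33 genes was 5694, beside 5412 over 13404 genes that had any ranked peak. By replicate the medians were 5197 beside 6226 (replicate 1, the same 33 genes) and 6167 beside 5086.5 (replicate 2, all 36 genes). The members stood on opposite sides of the genes in general in the replicates, but over sets of genes that differ. Only replicate 2 gave toy, onecut and ind a place, and these, at 10910, 6325 and 7560, lie beyond its median. The members are thus near the middle of all genes on this measure.

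**Figure D2:**
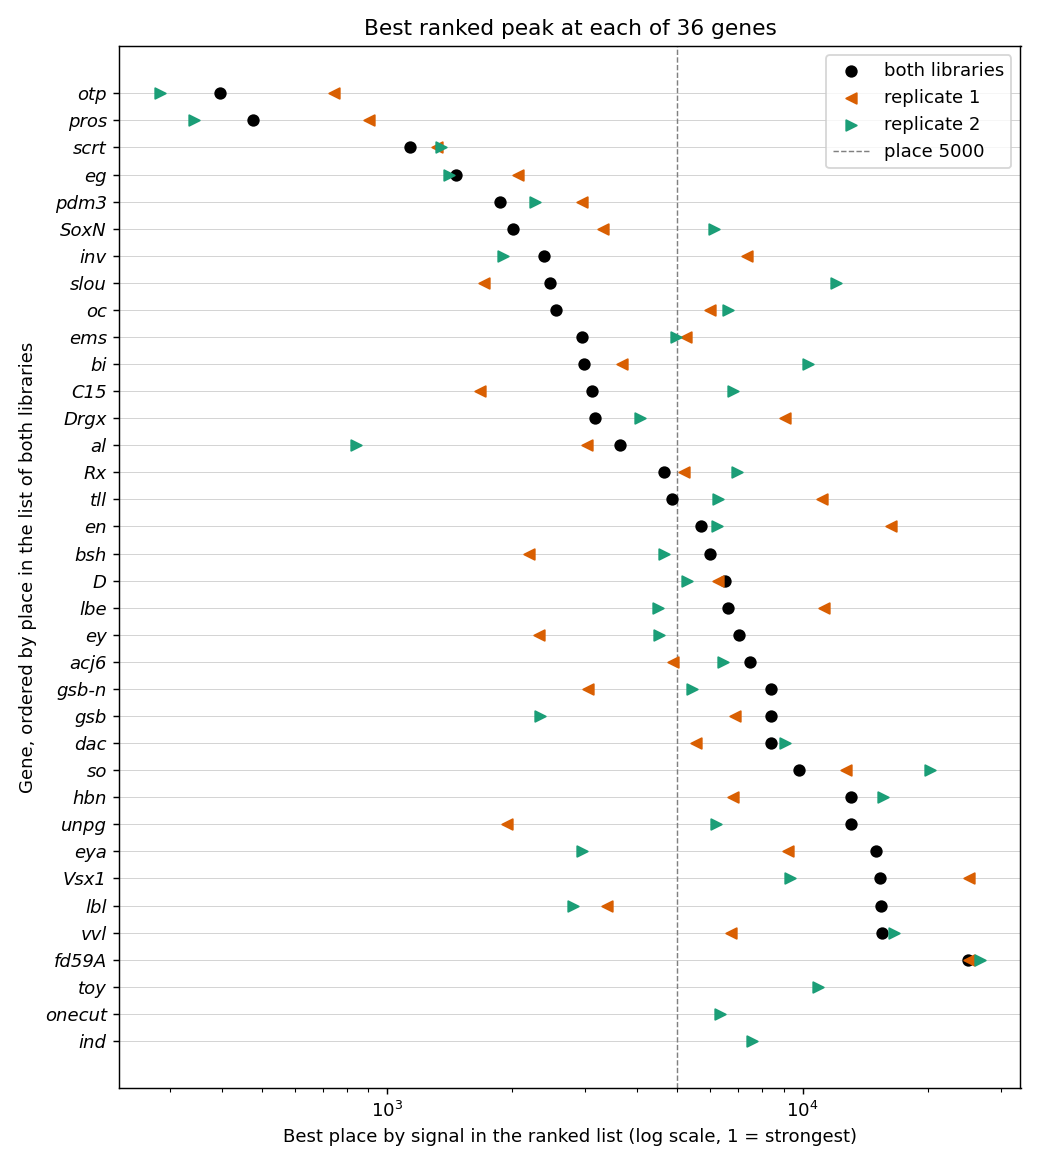
Best place by signal (horizontal, log scale, 1 = strongest) of each of the 36 genes in the ranked list of both libraries (circles), of replicate 1 and of replicate 2 (triangles), with place 5000 dashed. The genes run from otp at 396 to fd59A at 24971, and toy, onecut and ind have a place in replicate 2 alone.

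The members are long genes, and long genes hold more ranked peaks, so that the strongest of them tends to be higher. The median span was 11028.5 bp for the members and 2164.5 bp for all genes, and the median number of ranked peaks 24 and 15. Per kb the extended spans held 1.15 and 1.09 ranked peaks. Each member was therefore set beside the protein-coding genes whose number of ranked peaks was within 10% of its own (53 to 3159 genes per member). The median member had a better place than 45.0% of such genes. A thresholded peak was found at 28.5% of the like genes on average over the 33 members, and at 4 of the members. A peak counts for every gene within 5 kb, so 1445 thresholded peaks on the arms were given to 2799 genes. Neighbours thus share peaks, the like genes are not independent, and the difference was not tested. In all, 4 genes were above 75% of their like genes, and these were the 4 with a thresholded peak (otp 87.7, pros 80.3, scrt 80.1 and eg 77.8). That match is no separate result, since the thresholded peak is also the peak that set the place of each of them. At the other end, 4 genes were above fewer than 10% of theirs: lbl (2.36), Vsx1 (2.88), fd59A (4.15) and eya (4.62). Of the 33 genes, 12 were above 50% and 0 above 90%.

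**Figure D3:**
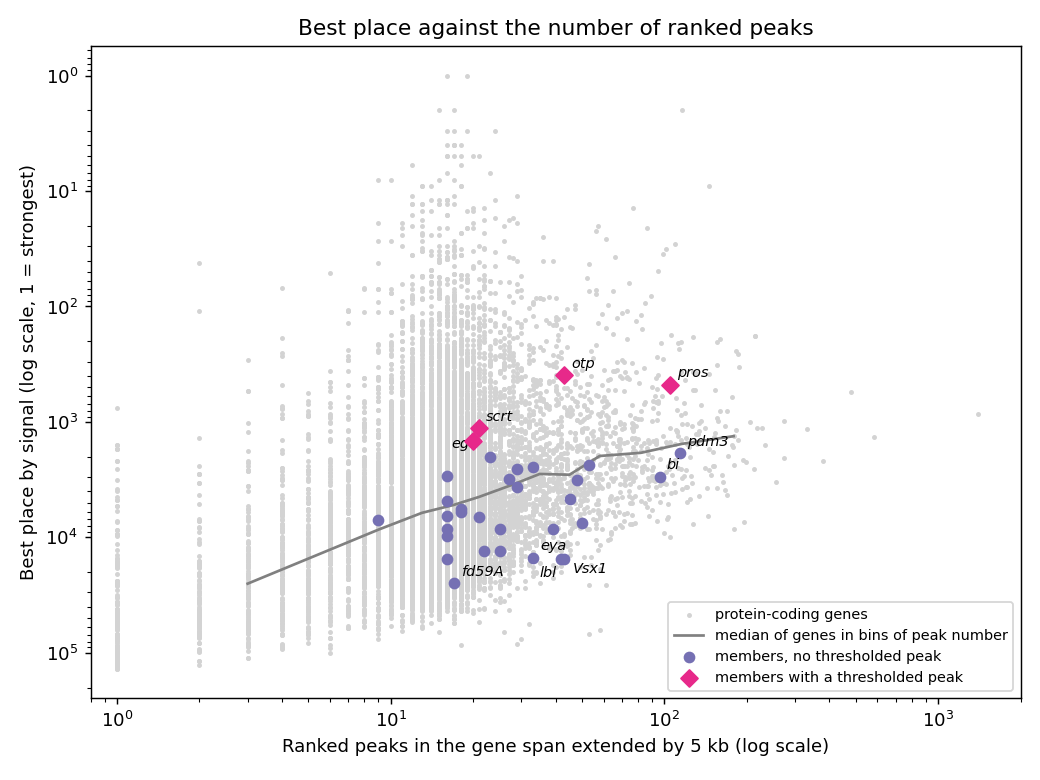
Best place (vertical, log scale, strongest at the top) against the number of ranked peaks in the extended span (horizontal, log scale) for all protein-coding genes (grey), the members (violet) and the members with a thresholded peak (pink), with the median of genes in bins of number as a line. The 4 pink genes lie above the line, and lbl, Vsx1, eya and fd59A lie furthest below it for their numbers of 42, 43, 33 and 17 peaks.

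In the paragraphs that take the genes by role, the values given for the replicates are the gene's best places in replicates 1 and 2, which need not belong to the same peak. The 6 genes of the zinc finger, Sox and nuclear receptor group, in which pros was also put, had the best placed median. Its members pros, scrt, eg and SoxN are described above. The nuclear receptor gene tll (tailless, of the brain and the termini) was at 4857 in the list of both libraries, at 11145 in replicate 1 and at 6266 in replicate 2. The Sox gene D (Dichaete) came last in the group at 6518, with 6251 and 5259 in the replicates. The peak that led at D in the joint list was itself at 16203 and 10952 in the replicates. The group's median place was 1735.5 and its median member was above 73.0% of like genes. It held 3 of the 4 listed genes, of 6 (20.0% of all genes). The group was put together with these lists already known, and its 6 genes include those whose peaks were described above.

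The 6 paired-type homeodomain genes ranged widely. After otp came Drgx, a homeodomain gene of neurons, at 3161 (replicates 9065 and 4074), al (aristaless, of the appendages) at 3630 and Rx, the retinal homeobox gene of the brain, at 4650 (replicates 5197 and 6957). The lower members were hbn (homeobrain) at 13075, with 6796 and 15582 in the replicates, and Vsx1, a gene of the optic lobe, at 15397, with 25175 and 9304. The group's median was 4140. The al peak, in an intron 1493 bp from the transcript start, was at 841 in replicate 2 with a signal of 47.6 and an IDR of 0.00375. No ranked peak of replicate 1 overlapped it. Its IDR was 0.0341 in the list of both libraries and 0.866 in the list behind the conservative one.

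The 4 head gap and other genes were mostly close to each other. The best peak of oc was intergenic at 2557 (replicates 5978 and 6627), that of ems (empty spiracles, a head homeodomain gene) in its coding sequence at 2948 (5257 and 4949), and that of the T-box gene bi (bifid, also known as optomotor-blind) in its coding sequence at 2982 (3670 and 10285). The forkhead gene fd59A was the last of all members at 24971, and its replicates had it at 25192 and 26667. Both replicates thus gave fd59A a low place. Its best peak of the joint list lay 442 bp from its own transcript start and was not the best in either replicate, where it was at 33052 and 40969.

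The 6 NK-type and ladybird homeodomain genes had no thresholded peak and a median place of 6304. A thresholded peak was found at 20.0% of all genes and on average at 27.5% of their like genes, and 6 genes are few. The best was slou (slouch, of muscle founders and neurons), whose coding sequence held a peak at 2474, with best places of 1715 and 12011 in the replicates. C15 followed at 3118 (1671 and 6808), then bsh (brain-specific homeobox) at 5980 (2202 and 4652), lbe (ladybird early) at 6628 (11279 and 4478) and unpg (unplugged) at 13080 (1949 and 6201). Last was lbl (ladybird late) at 15477, although its best places in the replicates were 3383 and 2796. The peak that led in the joint list at lbl was at 57435 in replicate 1 and at 2807 in replicate 2. The one at unpg was at 7721 in replicate 1 and overlapped no ranked peak of replicate 2.

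The 5 segment and columnar patterning genes had 1 gene in the first 5000 places (45.3% of all genes). This was inv (invected) at 2385, in an intron (replicates 7347 and 1906). Its paralogue en (engrailed), a homeodomain repressor of posterior compartments, was at 5694 with a peak in its 3' UTR (16322 and 6234). The Pax genes gsb (gooseberry) and gsb-n (gooseberry-neuro) were at 8411 and 8406. In the replicates gsb was at 6874 and 2338, and gsb-n at 3054 and 5419. The remaining gene, ind (intermediate neuroblasts defective), had no ranked peak in the joint list.

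Of the 4 POU and Onecut genes, pdm3 was first. The POU gene acj6, which acts in olfactory and other neurons, was at 7461 (4869 and 6446), and vvl (ventral veins lacking, of trachea and neurons) was at 15559 (6736 and 16618). Although pdm3 had the largest number of ranked peaks of any member (114), its place was above that of 45.3% of genes with a like number. Onecut is treated with the genes of no ranked peak.

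The 5 retinal determination genes are known for the eye and are also used in brain neurons. They were the group with 0 genes in the first 5000 places (45.3% of all genes). Of them, ey and toy lie on arm 4, where 0 of 80 protein-coding genes had a best place in the first 5000 of the joint list. There toy had no ranked peak at all. The Pax6 gene ey (eyeless) was at 7029 (2321 and 4505), dac (dachshund), a nuclear cofactor, at 8412 (5536 and 9097), the homeodomain gene so (sine oculis) at 9810 (12694 and 20288), and eya (eyes absent), a coactivator and phosphatase, at 14994 (9202 and 2951). The group's median over the 4 genes with a ranked peak, 9111, was the lowest placed of the role groups. In replicate 1 ey and in replicate 2 ey and eya nevertheless had a peak within the first 5000.

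Several members are neighbours in the genome, which allows genes of 1 stretch to be set side by side. The paired-type genes otp, Rx and hbn lie in this order on arm 2R, with spans from 20883625, 20916753 and 20954668, and had places of 396, 4650 and 13075. On arm 3R the NK-type genes lbl (from 21409979), lbe (21441577), C15 (21499986) and slou (21548661) follow each other with places of 15477, 6628, 3118 and 2474. The paralogues inv and en, also neighbours, were at 2385 and 5694, and gsb-n and gsb at 8406 and 8411. No pair of members had the same best peak. Among neighbours whose extended spans meet, lbe and lbl shared 2 ranked peaks, and gsb and gsb-n shared 0.

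For most members the peak that led in the joint list did not lead in both replicates. The best peak was also the best of the gene in replicate 1 for 11 of the 33 genes and in replicate 2 for 16. It led in both for 6 genes (otp, pros, scrt, SoxN, oc and tll) and in neither for 12. Among all genes with a ranked peak it led in both for 22.1% and in neither for 28.0%, beside 18.2% (Wilson 95% interval 8.61 to 34.4%) and 36.4% (22.2 to 53.4%) of the members. Both intervals hold the value for all genes. Of the 33 best peaks, 28 overlapped a ranked peak of both replicates, the peaks at al, dac and eya had none in replicate 1, and those at unpg and Drgx none in replicate 2. These overlap counts have no value for the best peaks of all genes beside them, so they describe the members only. The best places of the 2 replicates had a Spearman correlation of 0.42 over the 33 genes and of 0.47 over 12517 protein-coding genes, each from the same pair of libraries, so a place in 1 library tells only in part what the other gives.

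The best peaks of the members were spread over promoters, coding sequence, introns and intergenic stretches, and no difference in these shares was tested. The intervals cover counting error over genes chosen by symbol and are no test of a difference. A summit within 500 bp of a transcript start was found for 6 of 33 best peaks, 18.2% (8.61 to 34.4%). That share was 38.8% over all genes and 33.7% over genes of like peak number. In the replicates' own lists the members' share was 24.2% (replicate 1) and 19.4% (replicate 2, over 36 members), beside 35.7% and 40.6% of all genes. Only 4 of these 6 peaks were at the member's own start (scrt, eg, lbe and fd59A). The peak of pros was at Irbp and mgr, and that of bsh was 74 bp from the start of fbp, the gene of fructose-1,6-bisphosphatase. Intergenic summits made up 24.2% (12.8 to 41.0%, at gsb, unpg, Rx, C15, oc, tll, D and so), beside 13.0% of all genes and 10.1% of like genes. Introns held 30.3% (17.4 to 47.3%) beside 32.1% of like genes, and coding sequence 24.2% beside 21.1%.

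The 8 best peaks in coding sequence belonged to otp, hbn, slou, vvl, ems, SoxN, bi and, in the coding sequence of its neighbour Nepl8, dac. By place, 18 of the 33 best peaks lay inside the gene span, 7 upstream and 8 downstream. For 22 genes the nearest transcript start was the gene's own. For the other 11 it was a start of another gene, as at otp (Cib2, 4630 bp away) and Rx (Act57B, an actin gene, 3995 bp away). Which gene such a peak acts on was not measured. The counts by side of the span and by nearest start have no value for all genes beside them, so they show no trait of the members.

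**Figure D4:**
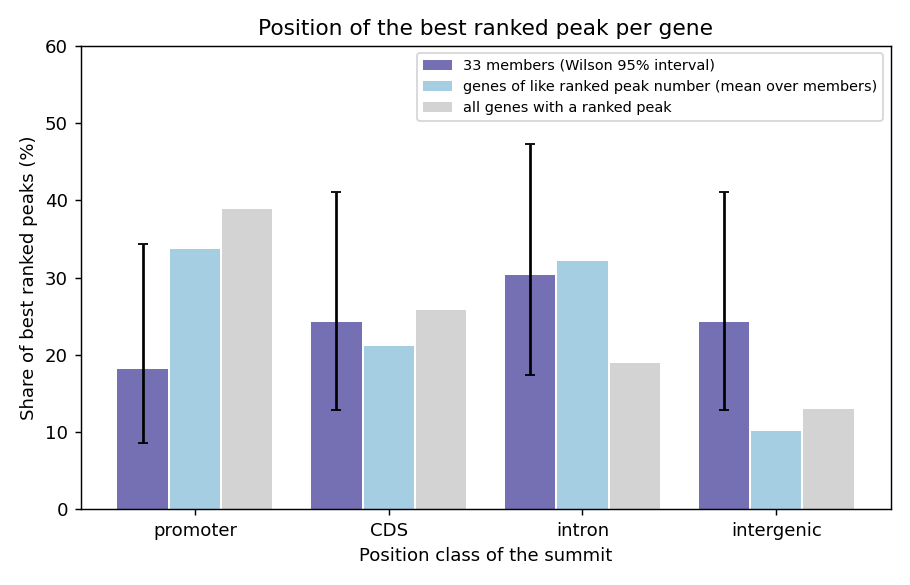
Share of best ranked peaks (%, vertical) by position class of the summit for the 33 members (violet, with Wilson 95% intervals for counting error), for genes of like ranked peak number and for all genes with a ranked peak. Promoters hold 18.2% of the members' best peaks, 33.7% of those of like genes and 38.8% of those of all genes, and intergenic summits 24.2%, 10.1% and 13.0%.

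Beyond the best peak of each gene, 1142 ranked peaks were assigned to the members. Their signal was like that of ranked peaks in general, with a median of 18.0 and quartiles of 10.8 and 26.6, beside 18.1, 10.8 and 26.5 on the arms. Thresholded peaks made up 0.350% of them and 1.04% of ranked peaks on the arms, and peaks of the first 5000 places 2.54% and 3.43%. A ranked peak of both replicates overlapped 54.8% of the members' peaks and 48.0% of those on the arms. Introns held 47.3% of the members' peaks (37.9% on the arms), promoters 10.6% (13.7%) and coding sequence 14.0% (19.7%).

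TAATTA occurred in 145 of the 1142 windows of 200 bp around these summits, 12.7% (10.9 to 14.8%), and in 9.94% of windows on the arms. AATATT, a palindrome of the same letters rearranged, occurred in 9.98% and 11.3%. The shares of TAAT on either strand were 75.7% and 73.4%, TAATTA included, and mean G and C 47.5% and 46.6%. ACAGTG, counted on both strands as the leading word of earlier work on these data, occurred in 6.39% and 8.16%. Windows of 1 gene can overlap and are not independent, and these differences were not tested. In the best windows of the 33 genes TAATTA was found at 4 (pros, D, gsb-n and lbl). With windows of 100 bp it was found at 1 of the 33 (3.03%, beside 5.02% on the arms). ACAGTG was found at 3 of the best 200 bp windows (pdm3, inv and oc), or 9.09%. That is not below the 8.16% of windows on the arms.

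For 3 genes, toy, onecut and ind, the joint list and that of replicate 1 gave no ranked peak in the extended span. The list of replicate 2 gave 12 peaks at toy (twin of eyeless, a Pax6 gene), 4 at onecut and 3 at ind, with best places of 10910, 6325 and 7560. The nearest ranked peak of the joint list was 5108 bp from ind, just outside the extension, and 6299 bp from onecut, but 187577 bp from toy. Both toy and onecut are on arm 4, where the joint list held 77 ranked peaks, replicate 1 held 45 and replicate 2 held 393. Of the 80 protein-coding genes on arm 4, 70 had no ranked peak (87.5%), beside 564 of all 13968 (4.04%). The other member on arm 4, ey, had 9 ranked peaks in the joint list, 7 in replicate 1 and 23 in replicate 2. The places of these genes are thus values of an arm with few listed peaks.

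Other lists of regulators of the nervous system, which were also put together with earlier results of these data known, were described the same way. Of 9 transcription factor genes of motor neurons, 6 had a thresholded peak (20.0% of all genes) and the median place was 1444. The best placed were Lim3 at 279, Poxm at 584 and exex at 1004. Lim3 is the gene whose tagged protein was precipitated, and the source label names an insertion targeting it. It held 8 thresholded peaks, and no other gene of these lists held more than 2. Whether the insertion bears on the peaks at Lim3 was not tested. Of 10 LIM homeodomain genes and cofactors, which include Lim3 and tup as the first list does, 4 had a thresholded peak and the median was 1549.5, led by Lim3 and Ssdp (592). Of 11 temporal factor genes of neuroblasts, 3 had a thresholded peak and the median was 3035.5, with chinmo first at 359. The 36 genes, with 4 listed and a median of 5694 over the 33 with a ranked peak, had the lowest share and the lowest placed median of these lists. They also held the fewest ranked peaks, with a median of 24. The medians were 30 (motor neurons), 32 (LIM homeodomain and cofactors) and 44 (temporal factors). The lists were not matched for this number, on which the best place depends. These differences were not tested.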

How the data were processed

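Peak lists of 1 group with 2 biological replicates were used, placed on dm6 per the labels. Per the deposited descriptions, each replicate has a ranked and a thresholded list of its own, and 2 further pairs of lists were made from the alignments of both libraries. Signal is the authors' value per peak, its scale is not given in the sources, and it was used within 1 list only. The deposited score is scaled from the IDR to at most 1000. The deposited ranked lists also hold the −log10 of the IDR. The thresholded lists were deposited by the authors with an IDR of 0.01 or less, and 124 of the 1624 ranked peaks of both libraries past that limit were not in the larger list. Aligner, peak caller and settings: not given in the sources used here. Depth is unknown, and intervals (Wilson, 95%) cover counting error only.

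Places by signal, position classes (a promoter summit, within 500 bp of a transcript start, went before UTR and coding sequence, these before other exons, and those before introns) and words in 200 bp windows were computed with Python 3.11.15, NumPy 2.4.6, pandas 2.3.3 and SciPy 1.17.1. Genes and transcript starts came from Ensembl release 115 (BDGP6.54), and bases from the RefSeq genome of the same assembly. Peaks outside the 7 chromosome arms (139295 of the 142438 ranked peaks were on them) got no gene. The code was tested on simulated data.

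The members and lists were chosen with earlier results of these data known, so that values are described and not tested. Named genes are those with a thresholded peak, the 10 members with the best places, and the first and last member of each role group. The other members were named after their values were seen. Other lists of peaks, libraries, extensions, windows and measures of place were tried.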

Additional observations from a re-analysis of the deposited data

How the results depend on the processing

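No paired analysis was possible because the labels give 1 group. The count of 4 members with a thresholded peak moved with the assignment of peaks to genes, the libraries and the strictness of the list. It was 1 in the gene span alone (otp, beside 5.0% of all genes), 7 with an extension of 10 kb (C15, Drgx and bsh added, beside 29.5%), 2 by the nearest transcript start (eg and scrt, beside 8.23%) and 2 in the upper part of the list by signal, cut at its median (otp and pros, beside 12.2%). Leaving out a replicate, by taking the other's own list, gave 1 to 3. It was 3 with 2 kb (13.1% of all genes) or the conservative list (14.6%), and 4 with any base of the peak (20.4%). The median best place of 5694 became 8562 in the span alone (all genes 21670) and 4857 with 10 kb (all genes 3344). The members were thus ahead of all genes in the span alone and behind them with 10 kb. All genes are not matched to the members, which are long. Beside genes of like peak number the median percentile in the span alone was 43.75, so the members were not ahead of those. Without a replicate the median best place was 5197 over 33 members and 6167 over 36 (all genes 6226 and 5086.5). In the list behind the conservative one it was 5061 (all genes 5159). The count in the first 5000 places was 12 in the span alone (14.9% of all genes) and 18 with 10 kb (61.4%), and 15 or 16 under the other alternatives. The median percentile among like genes, 45.0, was 36.1 to 41.8 without a replicate. The promoter share of best peaks was 6.06% with promoters of 200 bp (all genes 22.3%), 18.2% with 1000 bp (all genes 56.8%) and 19.4 to 24.2% without a replicate. TAATTA was in 6.30% of 100 bp windows (5.02% on the arms) and 30.4% of 500 bp windows (23.4%). Unknown depth limits all places.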
